A study of Arabidopsis thaliana with 6 samples.

Results

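The 46 genes described here encode the nuclear part of the photosynthetic apparatus, and were taken by locus identifier, not by level, from a table of 33323 loci. They were chosen with earlier results of these data known, so their shares beside those of all tested genes are a description. They comprise 14 LHCB genes of the photosystem II antenna, 6 LHCA genes of the photosystem I antenna, 12 genes of photosystem I subunits and 9 of photosystem II subunits. The other 5 are 4 genes of the Rubisco small subunit and RCA, the gene of Rubisco activase. Transcripts were measured in whole Arabidopsis thaliana seeds, dissected from the silique 6 days after hand self-pollination, in a study of auxin and the formation of cells in the endosperm. One group was Col-0 wild type (WT), without the transgene, and the other DD25::IaaH, whose background is also given as Col-0, with 3 libraries each from plants grown in long days. IaaH, a hydrolase of bacterial origin, converts indole-3-acetamide to auxin, and the DD25 promoter belongs to a gene of the central cell, from which the endosperm arises. The sources used here do not give the number of transgenic lines or the hour of collection. The replicates are called biological in the design text, but nothing ties them to separate plants, so p-values measure the spread between these libraries.

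Light is captured by chlorophyll-binding antenna proteins, LHCB around photosystem II and LHCA around photosystem I. The photosystems pass electrons through the thylakoid membrane to supply the cycle in which the enzyme Rubisco fixes carbon. The reaction centre proteins and the large subunit of Rubisco are encoded in the plastid, while the antenna and many peripheral subunits are encoded in the nucleus, often by several similar genes. Arabidopsis seeds are green during mid-development, with photosynthetic plastids in the embryo and in layers of the seed coat, and lose their chlorophyll as they mature.

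Values are RPKM, reads scaled by gene length and by library size, so levels can be compared between genes. Depth, rebuilt from the steps of the RPKM values, ranged from 6.50 to 17.8 M reads (mega), and 3 reads on a gene of 1 kb equal 0.169 to 0.462 RPKM. Reads lay on 82.1% and 63.8% of the annotated pseudogenes in WT 1 and WT 2, against 21.3% to 32.9% in the other 4 libraries. The evening clock genes ELF4 and LUX split the libraries across genotypes. ELF4 (AT2G40080) stood at 24.9, 34.1 and 1.68 RPKM in WT 1 to 3 and 25.4, 4.73 and 4.26 RPKM in DD25::IaaH 1 to 3. LUX (AT3G46640) stood at 29.1, 48.8 and 15.4 RPKM in WT 1 to 3 and 29.2, 13.0 and 10.00 RPKM in DD25::IaaH 1 to 3, and WT 1, WT 2 and DD25::IaaH 1 were the high libraries for both genes.

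Several antenna and photosystem transcripts fell in DD25::IaaH seeds, and the Rubisco genes that passed the test rose. In a limma test across 20880 genes, 11 of the 46 genes fell (23.9%), 2 rose and 33 did not pass an adjusted p of 0.05. Over all tested genes, 6.72% were lower and 8.25% were higher. All 11 genes that fell were among the 41 of the antenna and photosystems, and both that rose were Rubisco small subunit genes. The median log2 fold change, DD25::IaaH minus WT, was -0.31 over these 41 genes, -0.29 over the 46 and 0.03 over all tested genes. Values below 0 were found for 36 of the 41 antenna and photosystem genes, and values above 0 for all 5 Rubisco genes. With quantile normalization 36 of the 41 were still below 0, and 4 of the 5 Rubisco genes were above.

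Photosynthesis genes are strongly expressed, so they were also set beside genes of like level. Among the 2920 tested genes that averaged 50 RPKM or more, 7.43% were lower and 10.1% were higher, and of the 39 photosynthesis genes at that level 10 were lower (25.6%) and 0 higher. By limma at an unadjusted p under 0.05, 1 of the 39 was higher, and by voom on rebuilt reads 1 was called higher. Every DD25::IaaH library lay below every WT library for 20 of the 46 genes (43.5%), against 14.9% of all tested genes. For 4 genes every DD25::IaaH library lay above every WT library, which was so for 18.4% of all tested genes. The groups overlapped for the other 22. With 3 libraries a group, an exact permutation test of a single gene cannot go below 0.10, so calls rest on the spread that limma shares across genes. The count of genes that fell was 18 without WT 3. It was 4 without both WT 1 and WT 2, a fit in which WT 3 is the lone WT library, so that the spread comes from the DD25::IaaH libraries alone. Leaving out WT 1 gave 6, leaving out WT 2 gave 6, and leaving out DD25::IaaH 1 to 3 in turn gave 5, 7 and 5.

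**Figure D1:**
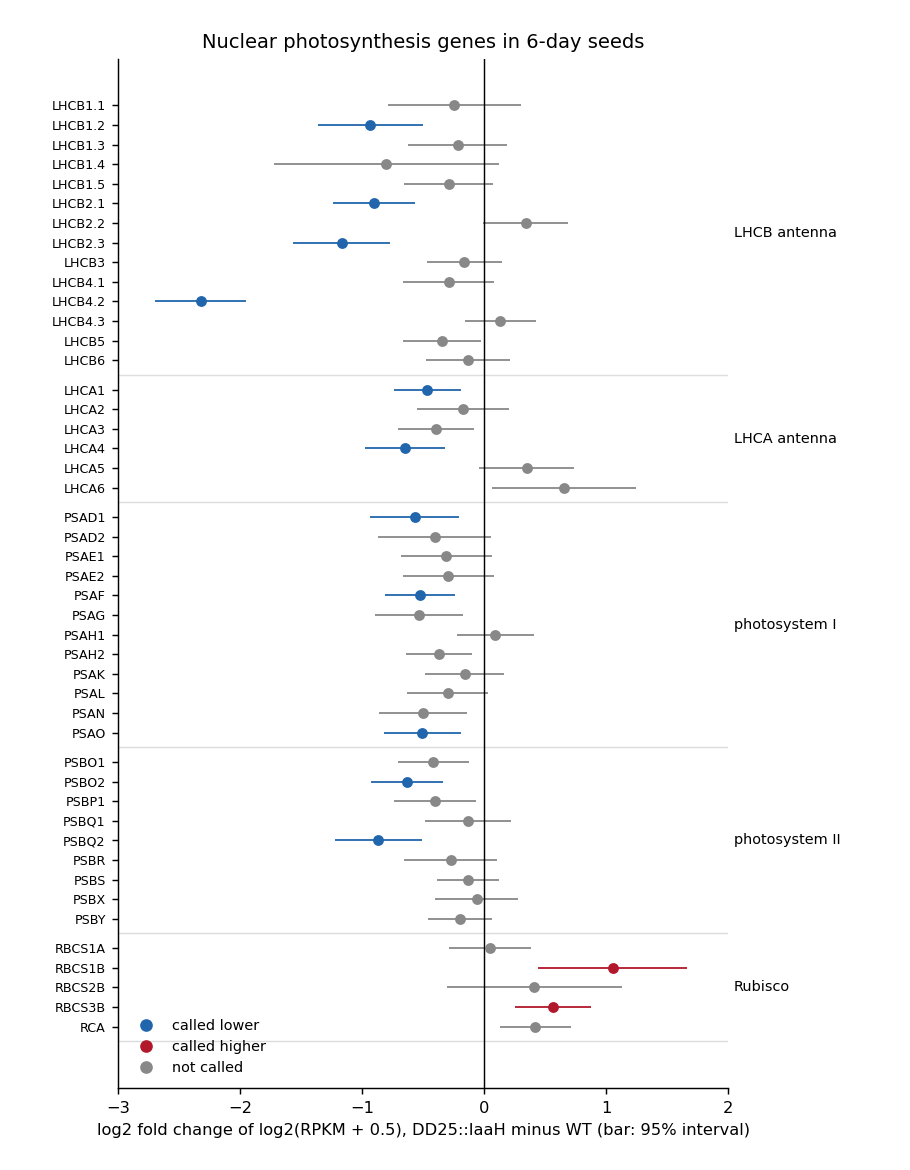
Log2 fold change of each of the 46 genes, DD25::IaaH minus WT, on the log2(RPKM + 0.5) scale, grouped by complex, with bars for the 95% interval of the limma fit. The 11 genes that fell lie between LHCB4.2 at -2.33 and LHCA1 at -0.46, and RBCS1B at 1.05 and RBCS3B at 0.56 are the 2 that rose.

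The major antenna of photosystem II, LHCII, is a trimer of LHCB1, LHCB2 and LHCB3 proteins. LHCB1.3 (AT1G29930), known as CAB1, had the highest level of the 46 genes, with 2117, 2698 and 2026 RPKM in WT 1 to 3 and 2016, 1943 and 1877 RPKM in DD25::IaaH 1 to 3. The DD25::IaaH values lay just below the lowest WT value, and the difference did not pass the test (adjusted p = 0.472). Its neighbour LHCB1.2 (AT1G29910), known as CAB3, stood at 337, 558 and 486 RPKM in WT 1 to 3 and 211, 248 and 251 RPKM in DD25::IaaH 1 to 3. All DD25::IaaH libraries were below all WT libraries, and the gene fell, with a log2 fold change of -0.93 ± 0.19 (SE, adjusted p = 0.0112). Without DD25::IaaH 1 its adjusted p was 0.0526. The third gene of this cluster, LHCB1.1 (AT1G29920) (CAB2), overlapped between groups, at 560.3, 489 and 741 RPKM in WT 1 to 3 and 350.1, 549 and 633 RPKM in DD25::IaaH 1 to 3. LHCB1.2 shares 96.4% of its aligned coding bases with LHCB1.3 and 95.6% with LHCB1.1. No 125-base window of its transcript occurs unchanged in another gene's transcript, but how reads with several matches were counted is not known. On chromosome 2, LHCB1.5 (AT2G34420) also overlapped, with group means of 567 and 460.2 RPKM, and LHCB1.4 (AT2G34430) was at 2.40 to 10.4 RPKM over the 6 libraries. LHCB1.4 passed only in a fit without WT 3 (adjusted p = 0.0349), where it was lower in DD25::IaaH.

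The LHCB2 genes encode the LHCII protein whose phosphorylation moves antenna between the photosystems. LHCB2.1 (AT2G05100) stood at 155, 205 and 187 RPKM in WT 1 to 3 and 86.1, 113 and 93.5 RPKM in DD25::IaaH 1 to 3. The groups were apart, and LHCB2.1 fell, with a log2 fold change of -0.90 ± 0.15 (SE, adjusted p = 0.00397). Its close copy on the same chromosome, LHCB2.2 (AT2G05070), stood at 158, 225 and 173 RPKM in WT 1 to 3 and 215, 226 and 258 RPKM in DD25::IaaH 1 to 3. Here the groups overlapped, the DD25::IaaH mean was the higher one, and the log2 fold change was 0.34 ± 0.15 (SE, adjusted p = 0.181). LHCB2.3 (AT3G27690) stood at 30.1, 48.1 and 42.5 RPKM in WT 1 to 3 and 17.1, 18.4 and 16.4 RPKM in DD25::IaaH 1 to 3, was lower in every DD25::IaaH library and fell, with a log2 fold change of -1.17 ± 0.18 (SE, adjusted p = 0.00237). The calls of LHCB2.1 and LHCB2.3 held under all 20 alternatives tried for each. Of the 125-base windows of LHCB2.3, 35.1% also belong to AT3G27700 on the opposite strand. That gene stood at 6.10, 7.48 and 8.60 RPKM in WT 1 to 3 and 8.95, 9.77 and 8.46 RPKM in DD25::IaaH 1 to 3, and did not pass (adjusted p = 0.308). LHCB3 (AT5G54270), the remaining LHCII gene, overlapped between groups at 206 to 273 RPKM.

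LHCB4, LHCB5 and LHCB6 are the minor antenna proteins, which bind as monomers and link LHCII to the core of photosystem II. LHCB4.2 (AT3G08940) showed the greatest change of the 46 genes, with 94.5, 142 and 99.3 RPKM in WT 1 to 3 and 22.7, 22.0 and 19.99 RPKM in DD25::IaaH 1 to 3. Every DD25::IaaH library was far below every WT library, and the log2 fold change was -2.33 ± 0.16 (SE, adjusted p = 2.67e-05), a 5.18-fold lower mean. This call held under all 21 alternatives. The main gene of the subunit, LHCB4.1 (AT5G01530), stood at 362, 428 and 333 RPKM in WT 1 to 3 and 352, 321 and 249 RPKM in DD25::IaaH 1 to 3, and the groups overlapped (adjusted p = 0.285). LHCB4.3 (AT2G40100) also overlapped, with means of 58.4 and 63.8 RPKM. LHCB5 (AT4G10340) was lower in every DD25::IaaH library, at 325, 433 and 346 RPKM in WT 1 to 3 and 306, 279 and 275 RPKM in DD25::IaaH 1 to 3, without passing (adjusted p = 0.141). LHCB6 (AT1G15820) overlapped at 362 to 512 RPKM.

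In both LHCB2 and LHCB4, 1 gene of a similar pair passed the test and the other did not, and the 250 bases before their annotated starts are shown for that reason. The difference between the genes of a pair was not tested. LHCB2.1 and LHCB2.2 share 90.9% of their aligned coding bases, and LHCB4.1 and LHCB4.2 share 81.9%. The sequences are from the RefSeq assembly TAIR10.1, written in the direction of the gene, at chr2:1824481-1824730 (minus strand), chr2:1800473-1800722 (minus strand), chr5:208616-208865 (plus strand) and chr3:2717307-2717556 (plus strand). Capitals mark the letters of 3 motifs on either strand, the G-box CACGTG, the I-box GATAAG and CCAATC.
LHCB2.1: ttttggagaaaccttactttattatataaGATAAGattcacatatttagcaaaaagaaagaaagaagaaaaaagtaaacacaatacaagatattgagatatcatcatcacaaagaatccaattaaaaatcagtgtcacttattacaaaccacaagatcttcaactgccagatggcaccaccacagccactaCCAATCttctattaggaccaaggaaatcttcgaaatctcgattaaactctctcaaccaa
LHCB2.2: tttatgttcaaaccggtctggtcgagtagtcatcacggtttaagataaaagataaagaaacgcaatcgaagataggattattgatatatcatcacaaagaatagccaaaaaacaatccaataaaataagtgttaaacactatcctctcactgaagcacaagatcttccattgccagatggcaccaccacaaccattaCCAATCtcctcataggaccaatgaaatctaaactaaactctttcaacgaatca
LHCB4.1: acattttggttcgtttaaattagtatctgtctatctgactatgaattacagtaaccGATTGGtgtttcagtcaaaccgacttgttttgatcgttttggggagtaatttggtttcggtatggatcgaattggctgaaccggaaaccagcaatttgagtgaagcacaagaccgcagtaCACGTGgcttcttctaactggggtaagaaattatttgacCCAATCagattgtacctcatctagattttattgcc
LHCB4.2: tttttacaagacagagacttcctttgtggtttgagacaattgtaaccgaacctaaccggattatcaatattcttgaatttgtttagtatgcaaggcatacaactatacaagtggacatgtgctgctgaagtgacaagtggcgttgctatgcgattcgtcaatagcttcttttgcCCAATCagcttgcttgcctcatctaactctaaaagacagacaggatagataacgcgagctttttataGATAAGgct
CCAATC begins 59 bases before the start in LHCB2.1 and 53 bases before it in LHCB2.2, within a stretch that is alike in both. LHCB2.1 also has an I-box, 221 bases before the start. LHCB4.1 has a G-box and CCAATC in both orientations, and LHCB4.2 has CCAATC and an I-box that ends close to the start.

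The same motifs, which are known from light-regulated promoters, were counted in the 250 bases before the start of all 46 genes and of 27443 annotated genes, as a description with no test. CCAATC was found in 12 of the 46 (26.1%) and in 10.2% of all promoters, and 7 of the 12 were LHCB and 3 were LHCA genes. The G-box was found in 9 (19.6%, against 6.49%) and the I-box in 11 (23.9%, against 12.3%). AAAAATCT, a binding site of the clock factor CCA1, was found in 5 (10.9%, against 6.69%). The evening element AAAATATCT was found in 1, LHCA5 (2.17%, against 2.36%). A motif was counted on both strands, and a match is a description of the letters in this window.

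The LHCA proteins form a belt on one side of photosystem I. LHCA4 (AT3G47470), which pairs with LHCA1, stood at 437, 502 and 376 RPKM in WT 1 to 3 and 249, 295 and 289 RPKM in DD25::IaaH 1 to 3. LHCA1 (AT3G54890) stood at 346, 403 and 351 RPKM in WT 1 to 3 and 249.8, 264 and 281 RPKM in DD25::IaaH 1 to 3. For both genes every DD25::IaaH library was below every WT library, and both fell, with log2 fold changes of -0.65 ± 0.14 (SE, adjusted p = 0.0169) for LHCA4 and -0.46 ± 0.12 (SE, adjusted p = 0.0337) for LHCA1. Without WT 3 both calls held, but LHCA1 lost its call without any other single library (adjusted p = 0.0639 to 0.135). LHCA4 lost its call when WT 1 or WT 2 was left out, and also when DD25::IaaH 1 or 3 was (adjusted p = 0.0514 to 0.0795).

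The other pair of the belt did not pass. LHCA3 (AT1G61520) was lower in every DD25::IaaH library, at 199.7, 266 and 225 RPKM in WT 1 to 3 and 181, 182 and 159 RPKM in DD25::IaaH 1 to 3, but did not pass (adjusted p = 0.0911). LHCA2 (AT3G61470) overlapped, at 128 to 196 RPKM. LHCA5 (AT1G45474) and LHCA6 (AT1G19150), whose proteins are scarce and help join photosystem I to the NDH complex, were low and had higher means in DD25::IaaH. LHCA5 had means of 6.08 and 7.87 RPKM and groups that did not overlap, and LHCA6 had means of 5.87 and 9.40 RPKM. Neither passed, with adjusted p of 0.218 and 0.136. LHCA6 passed as higher without WT 3 (adjusted p = 0.0322) and with library weights.

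Photosystem I subunits lie on both faces of the membrane. PSAF (AT1G31330), a docking subunit for plastocyanin on the lumen side, stood at 384, 393 and 318 RPKM in WT 1 to 3 and 248, 259.8 and 249 RPKM in DD25::IaaH 1 to 3. PSAD1 (AT4G02770), a docking subunit for ferredoxin on the stromal side, stood at 456, 518 and 352 RPKM in WT 1 to 3 and 310.1, 266 and 307 RPKM in DD25::IaaH 1 to 3. PSAO (AT1G08380), which lies where LHCII docks, stood at 230.0, 254 and 184 RPKM in WT 1 to 3 and 162, 152 and 153 RPKM in DD25::IaaH 1 to 3. In each case the DD25::IaaH libraries were all below the WT libraries, with WT 3 the closest of the WT libraries to them. All 3 genes fell, with log2 fold changes of -0.52 ± 0.13 (SE, adjusted p = 0.0235) for PSAF, -0.57 ± 0.16 (SE, adjusted p = 0.0468) for PSAD1 and -0.51 ± 0.14 (SE, adjusted p = 0.0414) for PSAO. Each lost its call without any single library other than WT 3, with adjusted p of 0.0636 to 0.0981 for PSAF, 0.105 to 0.164 for PSAD1 and 0.1002 to 0.151 for PSAO.

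Of the other 9 photosystem I genes, PSAG, PSAN and PSAH2 were also lower in every DD25::IaaH library. PSAG (AT1G55670), an anchor for the antenna, had means of 382 and 260.2 RPKM (adjusted p = 0.0572). PSAN (AT5G64040), on the lumen side, had means of 239 and 166 RPKM (adjusted p = 0.0702), and PSAH2 (AT1G52230), a subunit of the LHCII docking site, had 199 and 154 RPKM (adjusted p = 0.0741). These 3 and PSAD2 (AT1G03130) passed as lower without WT 3, with adjusted p of 0.00315 for PSAG, 0.00501 for PSAN, 0.0357 for PSAH2 and 0.0156 for PSAD2. With all 6 libraries, PSAG, PSAN and PSAH2 also passed as lower under quantile normalization and with library weights, PSAG and PSAN with the most abundant locus (AT2G01021) removed, and PSAG by voom. PSAL (AT4G12800), PSAE1 (AT4G28750), PSAE2 (AT2G20260) and PSAK (AT1G30380) overlapped, with lower means in DD25::IaaH. PSAH1 (AT3G16140) was the 1 photosystem I gene with a higher mean there, at 150 and 159 RPKM. Over all 12 genes the median log2 fold change was -0.39, and WT 3 was the lowest WT library for 11 of them.

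The extrinsic proteins PSBO, PSBP and PSBQ cover the water-splitting site of photosystem II. PSBQ2 (AT4G05180) stood at 259.7, 312 and 217 RPKM in WT 1 to 3 and 132, 163 and 134 RPKM in DD25::IaaH 1 to 3. The groups were apart and PSBQ2 fell, with a log2 fold change of -0.87 ± 0.16 (SE, adjusted p = 0.00680), a call that held without any single library. With WT 3 as the lone WT library, the log2 fold change was -0.61 (adjusted p = 0.140). PSBQ1 (AT4G21280) overlapped, at 121 to 176 RPKM. PSBO2 (AT3G50820), the minor gene of the manganese-stabilising protein, stood at 95.5, 121 and 93.2 RPKM in WT 1 to 3 and 66.7, 68.9 and 62.7 RPKM in DD25::IaaH 1 to 3. It was lower in every DD25::IaaH library and fell, with a log2 fold change of -0.63 ± 0.13 (SE, adjusted p = 0.0125), and had an adjusted p of 0.0535 without DD25::IaaH 3. The major gene PSBO1 (AT5G66570) stood at 403, 453 and 374 RPKM in WT 1 to 3 and 330.3, 284 and 306 RPKM in DD25::IaaH 1 to 3, and missed the threshold (adjusted p = 0.0623). PSBP1 (AT1G06680) was also lower in every DD25::IaaH library, with means of 371 and 278 RPKM (adjusted p = 0.109). Without WT 3 the adjusted p was 0.0279 for PSBO1 and 0.0428 for PSBP1, and both also passed with all 6 libraries when these were weighted, as PSBO1 did under quantile normalization and by voom.

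The remaining photosystem II genes did not pass. PSBS (AT1G44575), the sensor protein of energy quenching, had means of 159 and 144 RPKM, and PSBR (AT1G79040) had means of 655 and 536 RPKM. The small subunit genes PSBX (AT2G06520) and PSBY (AT1G67740) had means of 377 and 359.6 RPKM and of 204 and 177 RPKM. Groups overlapped for these genes except PSBY, and all 9 photosystem II genes had a log2 fold change below 0, with a median of -0.27.

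**Figure D2:**
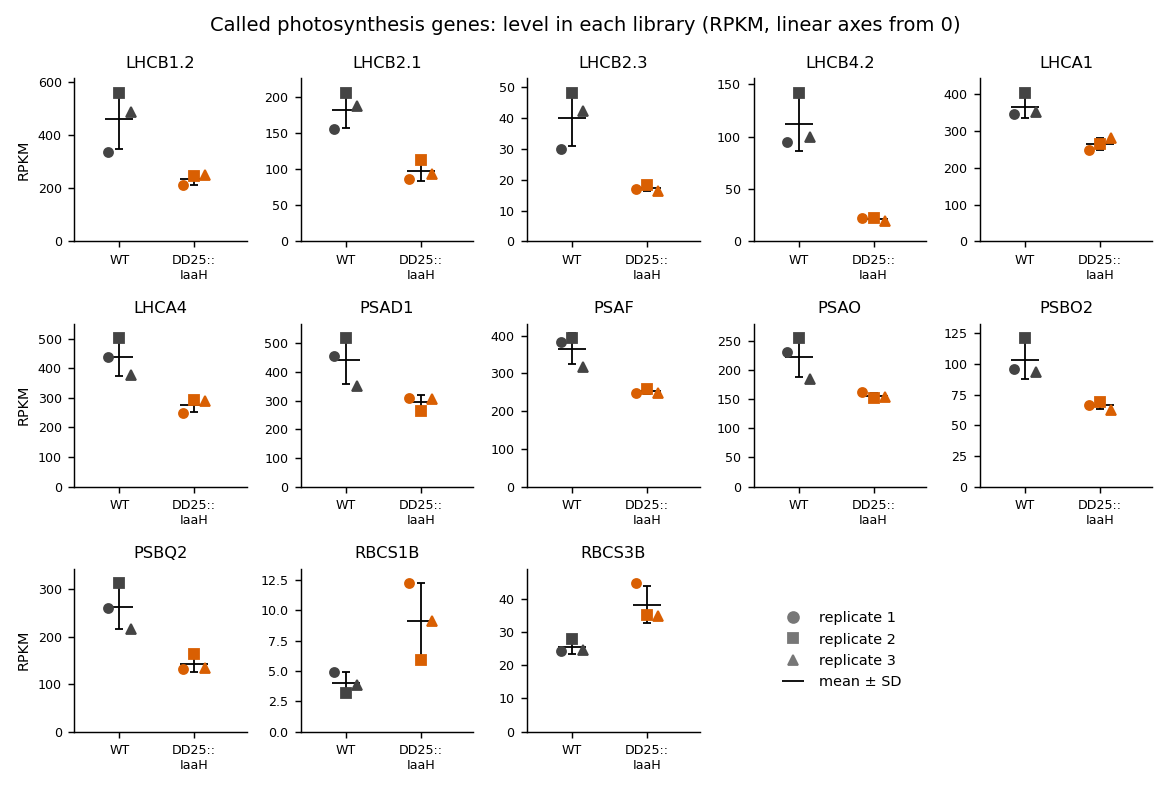
Level in RPKM, on linear axes from 0, of the 13 genes that passed the test in each of the 3 WT and 3 DD25::IaaH libraries, with bars for the mean ± SD. The groups do not overlap in any panel, and LHCB4.2 falls from 111.8 to 21.6 RPKM on average.

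Rubisco, the enzyme that fixes carbon dioxide, has a small subunit encoded by 4 genes. RBCS1A (AT1G67090), the main one, stood at 1449.6, 1495 and 1411 RPKM in WT 1 to 3 and 1616, 1409.6 and 1482 RPKM in DD25::IaaH 1 to 3. The groups overlapped and the log2 fold change was 0.05 ± 0.15 (SE, adjusted p = 0.874), with a 95% interval of -0.29 to 0.38. RBCS3B (AT5G38410) stood at 24.1, 27.9 and 24.6 RPKM in WT 1 to 3 and 44.6, 35.0 and 34.9 RPKM in DD25::IaaH 1 to 3. RBCS1B (AT5G38430) stood at 4.94, 3.18 and 3.86 RPKM in WT 1 to 3 and 12.2, 5.91 and 9.11 RPKM in DD25::IaaH 1 to 3. Every DD25::IaaH library was above every WT library for both genes, and both rose, with log2 fold changes of 0.56 ± 0.14 (SE, adjusted p = 0.0264) for RBCS3B and 1.05 ± 0.27 (SE, adjusted p = 0.0308) for RBCS1B. The third gene of this chromosome 5 cluster, RBCS2B (AT5G38420), overlapped at 1.09 to 3.57 RPKM. RCA (AT2G39730), whose product reactivates Rubisco, stood at 63.4, 66.6 and 78.5 RPKM in WT 1 to 3 and 102, 85.2 and 91.6 RPKM in DD25::IaaH 1 to 3, above WT in every DD25::IaaH library, and missed the threshold (adjusted p = 0.0601). RCA passed as higher without WT 3 (adjusted p = 0.0205), and with all 6 libraries when these were weighted and by voom on rebuilt reads. For RBCS3B the adjusted p was 0.0875 when WT 1 was left out and 0.1005 when DD25::IaaH 1 was. RBCS1B lost its call without WT 2, DD25::IaaH 1 or DD25::IaaH 3, with adjusted p of 0.106, 0.111 and 0.0979.

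The cluster genes RBCS1B, RBCS2B and RBCS3B share 96.7% to 97.3% of their coding bases, and RBCS1B and RBCS3B share some 125-base windows outright (6.16% and 10.0% of their own). The sources used here do not say how reads with several matches were counted, so the split between these genes is uncertain. Summed over the cluster, the level was 31.1, 32.9 and 29.5 RPKM in WT 1 to 3 and 58.6, 42.7 and 47.5 RPKM in DD25::IaaH 1 to 3, again with the groups apart.

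Summed over the genes of a complex, transcript was lower in DD25::IaaH for the antenna and both photosystems. The LHCB sum was 5315, 6761 and 5667 RPKM in WT 1 to 3 and 4695, 4855 and 4849 RPKM in DD25::IaaH 1 to 3. The LHCA sum was 1142, 1377 and 1094 RPKM in WT 1 to 3 and 852, 887 and 876 RPKM in DD25::IaaH 1 to 3. The ratio of the DD25::IaaH mean to the WT mean was 0.812 for LHCB, 0.724 for LHCA, 0.753 for photosystem I and 0.798 for photosystem II, and the groups did not overlap for any of these 4 sums. The Rubisco sum was 1544, 1595 and 1519 RPKM in WT 1 to 3 and 1777, 1537 and 1621 RPKM in DD25::IaaH 1 to 3, and its groups overlapped, with a ratio of 1.06. WT 2 had the highest sum of the WT libraries for each complex, and was the highest WT library for 40 of the 46 genes. No test was made of these sums. The 46 genes held 1.64%, 1.99% and 1.73% of the summed RPKM of WT 1 to 3 and 1.5%, 1.48% and 1.4% of that of DD25::IaaH 1 to 3, leaving out AT2G01021. That locus takes 19.5% to 30.6% of the summed RPKM of a library, which is not its share of the reads. In whole seeds, fewer green cells and less transcript per cell cannot be told apart.

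**Figure D3:**
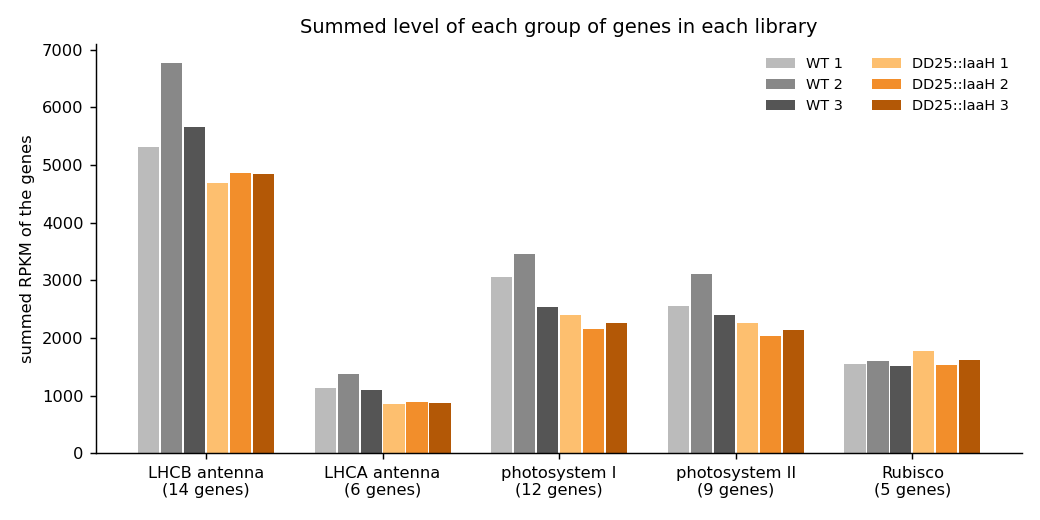
Summed RPKM of the genes of each complex, 1 bar per library, with the axis from 0. For the antenna and photosystem groups the 3 DD25::IaaH bars are shorter than all 3 WT bars. The Rubisco bars lie between 1519 and 1777 RPKM, and those of the 2 genotypes overlap.

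Within several subunits the split between genes differed with genotype. LHCB2.1 gave 45.2, 42.9 and 46.5% in WT 1 to 3 and 27.1, 31.6 and 25.4% in DD25::IaaH 1 to 3 of LHCB2 transcript. LHCB2.2 gave 46.1, 47.0 and 43.0% in WT 1 to 3 and 67.6, 63.3 and 70.2% in DD25::IaaH 1 to 3. LHCB4.2 gave 18.6, 22.3 and 20.2% in WT 1 to 3 and 5.15, 5.37 and 6.11% in DD25::IaaH 1 to 3 of LHCB4 transcript. In each case the groups were far apart, and the summed LHCB2 level, 344, 478 and 403 RPKM in WT 1 to 3 and 318, 357 and 368 RPKM in DD25::IaaH 1 to 3, overlapped between genotypes. PSBQ2 gave 66.7, 63.9 and 60.0% in WT 1 to 3 and 45.4, 57.3 and 51.1% in DD25::IaaH 1 to 3 of PSBQ transcript, with the groups apart. LHCB1.2 gave 9.65, 12.6 and 12.8% in WT 1 to 3 and 7.05, 7.65 and 7.74% in DD25::IaaH 1 to 3 of LHCB1 transcript, again with the groups apart. PSAH2 gave 60.6, 57.1 and 53.5% in WT 1 to 3 and 48.4, 50.2 and 48.8% in DD25::IaaH 1 to 3 of PSAH transcript, also with the groups apart. The shares of PSBO2, PSAD1 and PSAE1 in their subunits overlapped between genotypes. These shares were chosen for show after the levels were known, and no test was made of them. LHCB2.1 and LHCB2.2 share 4.21% and 5.30% of their 125-base windows, so few reads could be counted for either.

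**Figure D4:**
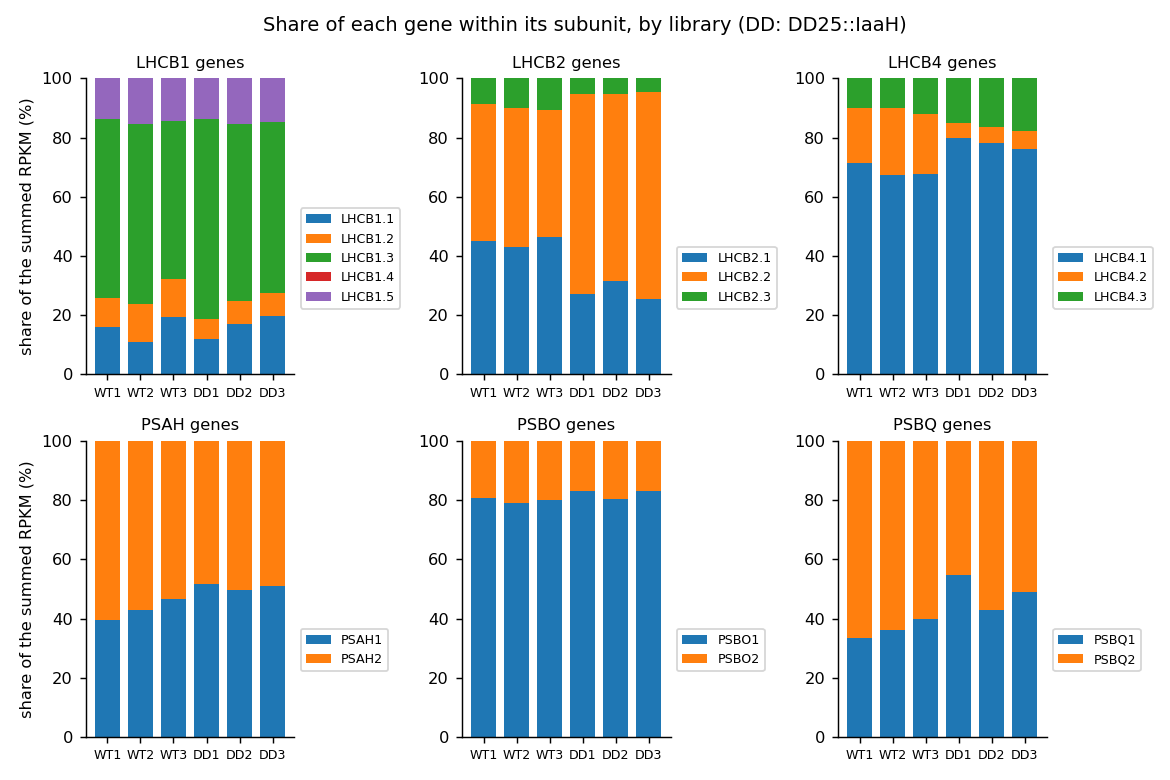
Share of each gene in the summed RPKM of its subunit, in percent, 1 stacked bar per library for 6 subunits encoded by several genes. In the LHCB2 panel LHCB2.1 takes 42.9% to 46.5% of the WT bars and 25.4% to 31.6% of the DD25::IaaH bars, and in the LHCB4 panel LHCB4.2 shrinks from at least 18.6% to at most 6.11%.

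The place of the genes that fell was set against ranges of loci drawn from these same data. Genes at 3 RPKM or more in all WT libraries, and over 15 times below the lowest WT value in all DD25::IaaH libraries, span AT2G02360 to AT2G15292, AT3G16400 to AT3G61020, AT4G01593 to AT4G37320 and AT5G48412 to AT5G66053. Inside these ranges 11.9% of all tested genes were lower, and outside them 3.99%. The ranges are bounded by genes that are much lower in DD25::IaaH, so a higher share of lower genes inside is built in, in part. Of the 15 photosynthesis genes inside, 7 fell (46.7%), namely LHCB2.1, LHCB2.3, LHCA1, LHCA4, PSAD1, PSBO2 and PSBQ2. Of the 31 outside, 4 fell (12.9%), namely LHCB1.2, LHCB4.2, PSAF and PSAO, and RBCS1B and RBCS3B rose. The part of these ranges in the differences was not tested. When the test was run again on the 13664 genes outside, 4 of the 31 were lower and 2 higher.

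Other parts of the pathway were counted in lists that had been chosen with results of these data known, and are to be read against the 6.72% lower and 8.25% higher of all tested genes. Of 14 genes of electron transport and ATP synthase 4 fell. ATPC1 (AT4G04640), the gamma subunit of ATP synthase, went from 118 ± 11.0 to 78.1 ± 0.882 RPKM (SD, n = 3), and PGRL1B (AT4G11960), of cyclic electron flow, from 9.93 ± 0.813 to 5.65 ± 1.82 RPKM (SD, n = 3). FNR1 (AT5G66190), which reduces NADP, went from 96.3 ± 9.88 to 69.8 ± 6.44 RPKM (SD, n = 3), and PETE1 (AT1G76100), a plastocyanin gene, from 53.3 ± 15.6 to 30.8 ± 0.639 RPKM (SD, n = 3). Of 15 Calvin-Benson cycle genes 2 fell. HCEF1 (AT3G54050), the plastid fructose bisphosphatase, stood at 60.2, 60.4 and 55.3 RPKM in WT 1 to 3 and 30.2, 28.1 and 23.6 RPKM in DD25::IaaH 1 to 3, with groups apart and a log2 fold change of -1.10 ± 0.13 (SE, adjusted p = 5.25e-04). FBA2 (AT4G38970), an aldolase, went from 147 ± 18.7 to 93.2 ± 8.32 RPKM (SD, n = 3).

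Of 17 tested chlorophyll synthesis genes 3 fell, with a median log2 fold change of -0.30. PORB (AT4G27440), the enzyme that makes chlorophyllide in light, stood at 85.4, 132 and 55.2 RPKM in WT 1 to 3 and 40.7, 26.6 and 24.6 RPKM in DD25::IaaH 1 to 3. The groups were apart and WT 3 was again the lowest WT library, and the log2 fold change was -1.50 ± 0.30 (SE, adjusted p = 0.0112). CHLI1 (AT4G18480), a subunit of magnesium chelatase, went from 99.3 ± 6.42 to 64.1 ± 5.93 RPKM (SD, n = 3), and its activator GUN4 (AT3G59400) from 32.1 ± 5.74 to 19.8 ± 1.596 RPKM (SD, n = 3). Of 8 genes of antenna targeting and phosphorylation 1 fell, CPSRP43 (AT2G47450), the chaperone of antenna proteins, from 52.3 ± 10.8 to 31.2 ± 2.63 RPKM (SD, n = 3). Of 8 genes of LHC-like proteins 2 fell and 1 rose. ELIP1 (AT3G22840), an antenna-like protein made under light stress, stood at 14.2, 8.34 and 68.2 RPKM in WT 1 to 3 and 134, 89.2 and 220.4 RPKM in DD25::IaaH 1 to 3, higher in every DD25::IaaH library than in any WT library, with WT 3 nearest to them. It rose, with a log2 fold change of 2.74 ± 0.66 (SE, adjusted p = 0.0241). LIL3:2 (AT5G47110), which holds enzymes of chlorophyll synthesis in the membrane, and SEP1 (AT4G34190) fell, with log2 fold changes of -0.61 ± 0.13 (SE, adjusted p = 0.0134) and -0.49 ± 0.14 (SE, adjusted p = 0.0442). HCEF1, ATPC1, FBA2 and CHLI1 kept their calls without any single library. PORB had an adjusted p of 0.0529 without DD25::IaaH 3, GUN4 reached 0.0686, CPSRP43 0.0847, LIL3:2 0.0581, ELIP1 0.0961, PGRL1B 0.125, SEP1 0.136, FNR1 0.152 and PETE1 0.160 when the library that mattered most was left out.

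Of 15 tested regulators of these genes 1 fell and 1 rose (6.67% each way), near the shares of all tested genes, 6.72% lower and 8.25% higher. GLK1 (AT2G20570), a transcription factor that activates antenna and chlorophyll genes, stood at 7.13, 6.55 and 4.17 RPKM in WT 1 to 3 and 2.56, 1.84 and 1.904 RPKM in DD25::IaaH 1 to 3. All DD25::IaaH libraries were below all WT libraries and GLK1 fell, with a log2 fold change of -1.29 ± 0.24 (SE, adjusted p = 0.00830). This call held without any single library. With WT 3 as the lone WT library, the log2 fold change was -0.85 (adjusted p = 0.245). Its homologue GLK2 (AT5G44190) overlapped, at 4.33, 3.34 and 5.34 RPKM in WT 1 to 3 and 2.12, 4.50 and 2.82 RPKM in DD25::IaaH 1 to 3. GNC (AT5G56860) and CGA1 (AT4G26150), GATA factors that promote greening, were near the floor, with CGA1 at 0.561, 1.80 and 0.638 RPKM in WT 1 to 3 and 0, 0 and 0.169 RPKM in DD25::IaaH 1 to 3. Neither passed (adjusted p = 0.136 and 0.0677). HY5 (AT5G11260), a light-signalling factor that binds many of these promoters, stood at 12.7, 9.91 and 11.9 RPKM in WT 1 to 3 and 16.6, 19.5 and 21.1 RPKM in DD25::IaaH 1 to 3. It was higher in every DD25::IaaH library and rose, with a log2 fold change of 0.71 ± 0.15 (SE, adjusted p = 0.0153), and had an adjusted p of up to 0.0623 when WT 2, DD25::IaaH 2 or DD25::IaaH 3 was left out.

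Of 10 clock genes 1 passed the test and rose, a share near the 8.25% of all tested genes that were higher. CCA1 (AT2G46830), a morning factor that binds antenna promoters, stood at 4.08, 2.00 and 5.06 RPKM in WT 1 to 3 and 6.87, 7.09 and 9.61 RPKM in DD25::IaaH 1 to 3, with groups apart and a log2 fold change of 1.05 ± 0.30 (SE, adjusted p = 0.0466). Its partner LHY (AT1G01060) overlapped, at 4.05, 1.35 and 10.2 RPKM in WT 1 to 3 and 7.82, 11.2 and 19.4 RPKM in DD25::IaaH 1 to 3 (adjusted p = 0.125). CCA1 lost its call under 13 of 21 alternatives. These took in the omission of any single library other than WT 3 (adjusted p up to 0.153), median-of-ratios scaling (0.0541), quantile normalization (0.0577) and a pseudocount of 0.1 (0.0539). When the mean level of ELF4 and LUX was added to the fit as a covariate, a choice made after their values were seen, 8 of the 46 genes were lower and 2 higher, and over all tested genes the counts went from 1404 lower and 1723 higher to 1207 and 1510. The part of the hour of collection in these differences was not tested.

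**Figure D5:**
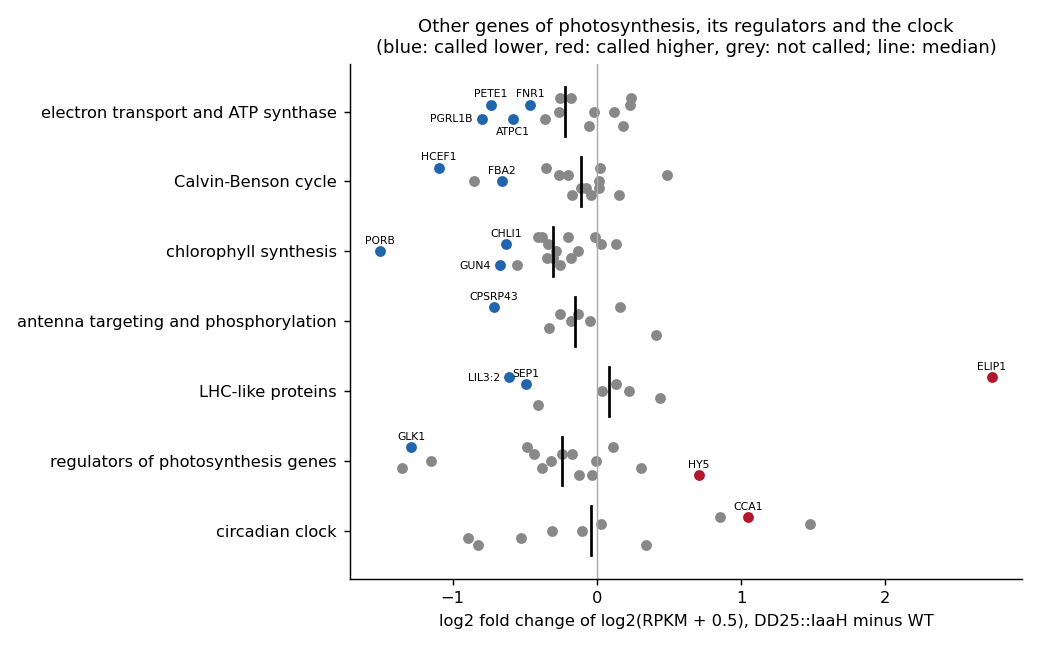
Log2 fold change of other genes of photosynthesis, their regulators and the clock, DD25::IaaH minus WT, 1 point per tested gene, coloured by call, with a line at the median of each list. Most called genes lie left of 0, and ELIP1 at 2.74, CCA1 at 1.05 and HY5 at 0.71 lie to the right.

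Some markers of the seed's tissues moved as well. Their counts are to be read against the 6.72% lower and 8.25% higher of all tested genes. Of 9 endosperm markers 7 rose (77.8%), and the sum over all 9 was 41.7 to 51.8 RPKM in WT and 147 to 192 RPKM in DD25::IaaH. ZOU and IKU2 did not pass and had lower means in DD25::IaaH, at 33.5 and 28.8 RPKM and at 0.861 and 0.654 RPKM. Most of the WT sum is ZOU. Most of the rise of the sum is PHE1, with means of 3.50 and 76.5 RPKM, and CKX2, with means of 1.68 and 30.7 RPKM. Of 8 tested embryo markers 1 fell, FUS3 (12.5%), a single call. The sum over all 9 embryo markers was 229 to 231 RPKM in WT and 183 to 221 RPKM in DD25::IaaH. Most of that sum is LEC1, which overlapped between groups, with means of 159 and 148 RPKM (adjusted p = 0.629). Of 8 seed coat markers BAN, TT2 and TT12 rose (37.5%) and TT10 fell (12.5%), and their sums overlapped. Of 5 silique wall markers FUL and IND were at 0 to 0.389 and 0 to 1.00 RPKM, and the sums, which rest on SHP2, a gene also made in seeds, overlapped. The part of tissue make-up in the lower photosynthesis transcripts was not tested.

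Reads from neighbours could enter some values, since 18 of the 46 genes overlap another annotated gene and the sources used here give no strand setting for the counting. LHCB1.5 lies wholly within reach of an antisense gene, and PSAG, PSAH1 and PSAE1 share 54.1%, 45.9% and 21.2% of their 125-base windows with a gene on the opposite strand. Of the 13 genes that passed, LHCB4.2, LHCB2.3 and LHCA4 overlap a gene on the opposite strand. The share of 125-base windows found in another gene's transcript is 35.1% for LHCB2.3 and 0% for LHCB4.2 and LHCA4.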

How the data were processed

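Polyadenylated RNA of 3 WT and 3 DD25::IaaH seed samples was sequenced as paired 125-base reads, per the labels' protocols. TopHat2 2.1.0 and TAIR10 were used, per the submitters' processing notes. The sources used here name neither the counting tool nor its settings for strand and for multiply matching reads. The authors deposited 1 table of RPKM values, normalised for gene length and library size, and tested with DESeq, per the labels' protocols; that test was not analysed here. Group and replicate were read from column names and labels.

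Depth was rebuilt from the steps of the RPKM values: 17.8, 8.95 and 9.61 M reads (mega) in WT 1 to 3 and 10.8, 6.50 and 9.10 M in DD25::IaaH 1 to 3. Of 31475 loci above 0, 31439 had a length that gave whole reads within 0.02 reads. That length was searched for around the annotated one, so a high share is in part built in. Among 13340 loci with at most 50 reads in every library, the annotated length itself gave whole reads for 52.9%. Limits from 3 reads cover counting error only.

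The 20880 genes averaging 0.5 RPKM or more were tested on log2(RPKM + 0.5) with limma 3.58.1 in R 4.3.3 (eBayes with trend, genotype only, two-sided, Benjamini-Hochberg adjustment over all tested genes, called at an adjusted p under 0.05). Fold changes on this scale understate those of low genes. The procedure was tested on simulated data, drawn independently for each library, which do not carry the differences between libraries described above. All adjusted p-values are from limma. All 46 genes passed the filter. Sums and shares within a subunit are of RPKM. Positions, sequences, overlaps and pseudogenes come from the RefSeq annotation of TAIR10.1, matched by locus identifier (32835 loci, 46 of 46 genes), and the coordinates are of that assembly.

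The 46 genes and all lists were chosen with earlier results of these data known. All 46 were to be named, with up to 4 tested genes of each other list in order of adjusted p, and GLK1, GLK2, GNC, CGA1, HY5, CCA1 and LHY whatever their values; ELF4 and LUX were named after their values were seen. The 9 plastid-encoded photosynthesis genes of a further list were not analysed here. In all, 21 alternatives were tried for the pseudocount, filter, scaling, variance model, tool, libraries and genes used, and a clock covariate among them was added after seeing the data.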

Additional observations from a re-analysis of the deposited data

How the results depend on the processing

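No result of a single gene changed direction where it had passed the test, under any of the 20 or 21 alternatives run for it. The 11 lower and 2 higher photosynthesis genes became 7 and 0 without the variance trend, where limma had 4 higher at an unadjusted p under 0.05. Without both WT 1 and WT 2, where WT 3 is the lone WT library and is assumed to vary like the DD25::IaaH libraries, there were 4 and 0, with 3 higher at an unadjusted p under 0.05, and the counts over all genes fell from 1404 lower and 1723 higher to 379 and 684. In the test on genes outside the locus ranges, where fewer genes are tested, the lower count was 4, and 463 and 971 genes were called over all. Higher calls among the 46 numbered 1 without the filter and 4 with library weights. Leaving out 1 library at a time gave 5 to 18 lower and 0 to 4 higher photosynthesis genes, and 850 to 1910 lower and 1012 to 2223 higher genes over all, each time with the highest count without WT 3. The count of 0 higher came without DD25::IaaH 1, where 3 were higher at an unadjusted p under 0.05. The cause of these changes was not tested. Summed levels and shares within a subunit moved by less than the spread between replicates under the alternatives run for them.

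The replicate number does not pair the libraries by the labels, and same-numbered libraries did not deviate together (correlations of -0.0802, -0.0310 and -0.101). With the replicate number as a block, 7 photosynthesis genes were lower and 1 higher, and 1061 and 1368 genes over all. LHCB4.2, LHCB2.1 and LHCB2.3 kept their calls under every alternative run for them, RBCS1B lost its call under 6 of 21, and LHCA1, PSAD1 and PSAO each lost theirs under 10. Counting error weighs more on low genes, above all on RBCS2B, at 1.09 to 3.57 RPKM. RBCS1B stood at 3.18 to 12.2 RPKM and LHCB1.4 at 2.40 to 10.4 RPKM. These levels lie above the limits of 3 reads on a gene of 1 kb, 0.169 to 0.462 RPKM.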
